A study of Mus musculus with 18 samples.

Results

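The *Hox* genes were taken as all genes of the deposited annotation named *Hoxa*, *Hoxb*, *Hoxc* or *Hoxd* with a number, which gave 39 of 35858 genes on chromosomes 1 to 19, X and Y. They lie in 4 clusters, with 11 genes in *Hoxa*, 10 in *Hoxb*, 9 in *Hoxc* and 9 in *Hoxd*. The data were lists of peaks of histone H3 lysine 9 trimethylation (H3K9me3) from chromatin immunoprecipitation sequencing (ChIP-seq) of mouse embryonic stem cells (mESCs) of the line E14TG2a, grown on gelatin in medium with serum and LIF. There were 2 libraries each of wild-type cells, of cells lacking *Uhrf1* (*Uhrf1* KO) and of cells lacking *Dhx9* (*Dhx9* KO). The study compared wild-type with *Uhrf1* KO cells to ask which H3K9me3 depends on UHRF1, and the *Dhx9* KO libraries were set against the same wild-type libraries here. Per the study's methods, the *Uhrf1* KO cells are clonal CRISPR lines. They were made in mESCs that carry a silencing reporter at the *Vim* promoter on chromosome 2 and a TetR-KRAB fusion at Rosa26. The study's figure legends name the wild-type cells set against them as reporter cells too, while the sample labels say only WT. How the *Dhx9* KO cells were made is not given in the sources used here. The peak lists carry no reading of either deletion, so the genotypes rest on the labels.

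H3K9me3 is the mark of constitutive heterochromatin, written by SUV39H1, SUV39H2 and SETDB1 and read by HP1 proteins. *Hox* genes encode homeodomain transcription factors that pattern the body axis, and in mESCs their clusters are a textbook example of repression by Polycomb, which marks chromatin with H3K27me3 instead. UHRF1 binds hemimethylated DNA and histone H3 and recruits DNMT1 for maintenance of DNA methylation. DHX9 is a helicase that unwinds RNA and DNA structures. The clusters were therefore examined as a part of the genome with little H3K9me3, and the peak lists were used to ask how little, where the remaining peaks lie, and what became of them in both KO lines.

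A cluster was measured from 5 kb before its first *Hox* transcript to 5 kb after its last, on the mm10 assembly. The *Hoxa* window is chr6:52150367-52265880, *Hoxb* chr11:96189361-96373254, *Hoxc* chr15:102916131-103041856 and *Hoxd* chr2:74663310-74770142. The flanks are the next 200 kb on each side. The clusters hold 49.1% GC and 23.8 CpG per kb against 41.7% and 8.26 in the genome, and 18.0% of their bases are soft-masked as repeats against 36.4%. Few of the 39 genes had a peak in every library, and the sequences at the centre of what was shared are the first to be shown.

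Only 4 stretches of the clusters held a peak in all 6 lists. The 300 bases at the centre of the part of each that all 6 lists cover are printed in lower case with each CpG, the dinucleotide that UHRF1 and DNMT1 act on, in capitals, because these are the sites where the mark was found in every genotype. They were read from the GRCm38.p6 assembly.
*Hoxb*, between *Hoxb13* and *Hoxb9*, first, chr11:96211751-96212050 (plus strand): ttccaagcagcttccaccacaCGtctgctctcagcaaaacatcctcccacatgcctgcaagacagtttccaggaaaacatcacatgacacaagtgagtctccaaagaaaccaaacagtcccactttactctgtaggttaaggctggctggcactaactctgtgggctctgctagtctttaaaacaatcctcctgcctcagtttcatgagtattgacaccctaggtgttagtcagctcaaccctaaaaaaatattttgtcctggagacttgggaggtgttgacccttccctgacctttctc
*Hoxb*, between *Hoxb13* and *Hoxb9*, second, chr11:96227851-96228150 (plus strand): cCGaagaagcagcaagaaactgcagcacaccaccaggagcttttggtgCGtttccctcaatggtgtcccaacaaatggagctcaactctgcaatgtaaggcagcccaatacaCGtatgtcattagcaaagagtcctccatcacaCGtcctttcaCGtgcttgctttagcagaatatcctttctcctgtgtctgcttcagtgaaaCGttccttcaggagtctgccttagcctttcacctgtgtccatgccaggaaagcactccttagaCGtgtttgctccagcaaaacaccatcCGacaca
*Hoxc*, between *Hoxc9* and *Hoxc8*, chr15:102985951-102986250 (plus strand): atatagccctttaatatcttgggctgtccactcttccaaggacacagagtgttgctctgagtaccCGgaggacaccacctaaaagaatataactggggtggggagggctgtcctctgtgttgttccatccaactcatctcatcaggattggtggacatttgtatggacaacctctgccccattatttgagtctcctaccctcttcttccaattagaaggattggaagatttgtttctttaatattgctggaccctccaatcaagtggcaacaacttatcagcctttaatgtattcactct
*Hoxd*, between *Hoxd13* and *Hoxd12*, chr2:74673851-74674150 (plus strand): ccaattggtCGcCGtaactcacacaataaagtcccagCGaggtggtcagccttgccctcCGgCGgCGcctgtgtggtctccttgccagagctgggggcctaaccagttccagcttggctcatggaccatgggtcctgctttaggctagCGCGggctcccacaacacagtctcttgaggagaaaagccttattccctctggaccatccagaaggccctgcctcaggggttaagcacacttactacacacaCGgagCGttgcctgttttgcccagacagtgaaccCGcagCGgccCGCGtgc

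These 4 sites differ in sequence. The *Hoxd* site holds 14 CpG in 300 bases and no masked repeat, the second *Hoxb* site holds 8 CpG with 65.7% of its bases masked, and the first *Hoxb* site and the *Hoxc* site hold 1 CpG each. In the GENCODE annotation the *Hoxc* site lies in an intron of a *Hoxc5* transcript, and the other 3 are intergenic.

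The next site is shown because it held a peak in both wild-type libraries and in neither *Uhrf1* KO library. It contains the hairpin of the microRNA gene Mir196a-1, which lies between *Hoxb13* and *Hoxb9*.
*Hoxb*, Mir196a-1, chr11:96265051-96265350 (plus strand): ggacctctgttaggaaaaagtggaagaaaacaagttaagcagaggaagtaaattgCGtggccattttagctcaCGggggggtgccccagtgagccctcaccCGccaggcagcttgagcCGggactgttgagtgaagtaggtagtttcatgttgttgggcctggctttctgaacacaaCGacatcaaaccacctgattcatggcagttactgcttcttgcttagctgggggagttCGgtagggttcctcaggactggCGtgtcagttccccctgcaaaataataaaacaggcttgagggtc

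The clusters also encode microRNAs that target *Hox* transcripts. Their mature sequences (RefSeq, GRCm38.p6) are shown with the seed, bases 2 to 8, in capitals.
mmu-miR-196a-5p: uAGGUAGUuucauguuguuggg
mmu-miR-196b-5p: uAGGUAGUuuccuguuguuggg
mmu-miR-10a-5p: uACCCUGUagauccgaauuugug
mmu-miR-10b-5p: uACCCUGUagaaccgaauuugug

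The miR-196 members share the seed AGGUAGU and the miR-10 members the seed ACCCUGU. Genes with the same seed lay in peaks in different numbers of lists, and a link between seed and mark was not tested. Mir196a-1 in *Hoxb* lay in a peak in 3 libraries (wild-type 1 and 2 and *Dhx9* KO 1), Mir196a-2 in *Hoxc* and Mir10b in *Hoxd* each in 2 (wild-type 2 and *Dhx9* KO 1), and Mir196b in *Hoxa* and Mir10a in *Hoxb* in 0.

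Promoters are shown as the 250 bases before a RefSeq start, for the genes whose promoter window met a peak in at least 2 lists and, for contrast, for *Hoxd13*, whose promoter met none.
*Hoxd12* promoter, chr2:74674763-74675012 (plus strand): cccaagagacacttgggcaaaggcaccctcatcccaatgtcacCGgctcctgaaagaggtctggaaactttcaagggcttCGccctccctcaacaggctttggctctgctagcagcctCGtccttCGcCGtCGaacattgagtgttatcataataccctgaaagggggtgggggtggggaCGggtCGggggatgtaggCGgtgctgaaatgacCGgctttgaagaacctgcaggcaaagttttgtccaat
*Hoxb1* promoter, chr11:96365508-96365757 (plus strand): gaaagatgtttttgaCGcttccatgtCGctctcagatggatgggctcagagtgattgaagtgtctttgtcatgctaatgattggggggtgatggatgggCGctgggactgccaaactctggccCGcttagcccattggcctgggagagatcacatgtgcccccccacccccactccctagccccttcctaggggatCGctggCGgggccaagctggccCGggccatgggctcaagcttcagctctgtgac
*Hoxa10* promoter, inner start, chr6:52234940-52235189 (minus strand): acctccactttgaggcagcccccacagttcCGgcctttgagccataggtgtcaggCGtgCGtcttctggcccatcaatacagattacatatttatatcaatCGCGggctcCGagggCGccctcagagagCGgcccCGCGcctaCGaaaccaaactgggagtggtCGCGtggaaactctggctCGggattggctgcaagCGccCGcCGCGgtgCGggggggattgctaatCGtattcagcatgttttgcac
*Hoxd13* promoter, chr2:74667975-74668224 (plus strand): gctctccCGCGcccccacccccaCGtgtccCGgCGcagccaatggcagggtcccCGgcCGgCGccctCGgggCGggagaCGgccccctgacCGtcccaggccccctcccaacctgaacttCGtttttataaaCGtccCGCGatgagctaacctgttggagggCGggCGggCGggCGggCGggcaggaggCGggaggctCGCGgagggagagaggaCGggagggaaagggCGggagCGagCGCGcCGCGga

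RefSeq promoters of 300 bases (250 before and 50 after the start) were at hand for 24 starts of 22 *Hox* genes. They held a median of 14.5 CpG, against 7 over all 32850 promoters, and 34.6% of all promoters held at least as many as that median. Of the 24, 3 met a peak in any list, a count given without the share over all promoters. The *Hoxd12* promoter, with 13 CpG, met one in 5 lists, the *Hoxb1* promoter, with 10 CpG, in 3, and the inner *Hoxa10* promoter, with 21 CpG, in 2. The promoter of *Hoxd13*, with 37 CpG, and that of *Hoxa13*, with 45 CpG, met none. *Hoxa13* and *Hoxd13* pattern the distal limb and the hindgut.

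Outside the clusters, the strongest wild-type region of each pair of flanks, by the lower of its log2 folds in both wild-type libraries, is shown by the 300 bases at its centre.
*Hoxa* right flank, chr6:52458351-52458650 (plus strand): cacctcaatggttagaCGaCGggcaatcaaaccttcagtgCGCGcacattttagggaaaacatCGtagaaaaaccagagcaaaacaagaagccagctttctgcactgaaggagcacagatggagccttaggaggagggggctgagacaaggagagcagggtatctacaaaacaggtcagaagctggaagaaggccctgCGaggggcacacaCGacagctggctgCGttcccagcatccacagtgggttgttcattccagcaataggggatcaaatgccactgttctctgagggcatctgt
*Hoxb* left flank, chr11:96186751-96187050 (plus strand): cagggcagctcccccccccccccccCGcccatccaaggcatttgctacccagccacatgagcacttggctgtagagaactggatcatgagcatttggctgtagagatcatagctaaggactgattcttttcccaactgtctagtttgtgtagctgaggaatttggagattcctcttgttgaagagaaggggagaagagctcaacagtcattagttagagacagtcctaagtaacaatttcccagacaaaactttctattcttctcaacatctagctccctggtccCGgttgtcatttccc
*Hoxc* right flank, chr15:103064951-103065250 (plus strand): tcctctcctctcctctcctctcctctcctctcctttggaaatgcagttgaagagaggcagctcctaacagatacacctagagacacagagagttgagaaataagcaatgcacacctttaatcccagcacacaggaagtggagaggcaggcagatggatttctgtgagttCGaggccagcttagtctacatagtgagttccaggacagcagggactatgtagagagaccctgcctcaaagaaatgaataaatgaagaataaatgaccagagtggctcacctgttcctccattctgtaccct
*Hoxd* left flank, chr2:74585551-74585850 (plus strand): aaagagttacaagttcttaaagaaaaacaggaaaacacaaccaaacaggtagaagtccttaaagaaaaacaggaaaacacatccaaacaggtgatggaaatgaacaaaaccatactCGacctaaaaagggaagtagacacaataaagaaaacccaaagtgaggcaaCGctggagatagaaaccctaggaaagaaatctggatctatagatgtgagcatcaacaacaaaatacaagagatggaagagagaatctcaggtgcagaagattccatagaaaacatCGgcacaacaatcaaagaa

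The *Hoxd* flank stretch is wholly masked repeat with 3 CpG, whereas 14.3% of the *Hoxa* flank stretch is masked and it holds 8 CpG. The *Hoxb* stretch holds 2 CpG and the *Hoxc* stretch 1, with 64.7% masked.

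The 6 lists held 70195 to 125453 peaks with 6703081 to 20875020 ChIP reads in them. *Uhrf1* KO 1 had the fewest peaks and the fewest reads in them. Peaks were called on 200 bp bins, and the fewest reads in any peak were 14 in that library and 25 to 27 in the others, so that a stretch without a peak is one below the caller's threshold and not one without reads. Total depth is not given in the lists. The peaks of wild-type and *Dhx9* KO with identical limits carried identical background read counts (100% of 5933 such peaks for wild-type 1 and *Dhx9* KO 1), and so did those of both *Uhrf1* KO libraries. Between wild-type 1 and *Uhrf1* KO 2 only 2.27% of 6439 such peaks did, and the median ratio of *Uhrf1* KO to wild-type background reads was 0.600. The *Uhrf1* KO lists were therefore called against other background reads, and in every comparison with *Uhrf1* KO that follows genotype and background cannot be told apart.

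Summed, the 4 clusters carried less H3K9me3 than the genome in every library, but they were not free of it. In wild-type cells 11.6% and 9.82% of their bases lay in peaks, against 15.7% and 15.2% of the genome. In *Uhrf1* KO cells the clusters were covered over 1.09% and 2.07%, against 7.69% and 12.9% of the genome, and in *Dhx9* KO cells over 8.99% and 3.53%, against 15.5% and 15.1%. The *Hox* clusters were lower in 6 of 6 libraries, and cluster minus genome coverage was -7.48 percentage points on average (SD 3.02, n = 6 libraries, exact two-sided sign-flip test p = 0.03125, the smallest these libraries allow, and 0.188 after Benjamini-Hochberg adjustment over 6 coverage tests). The 6 libraries are not 6 independent samples of a condition, and the wild-type libraries showed the smallest gaps, 4.11 and 5.34 points. Thus, measured against the whole genome, the name of a locus poor in H3K9me3 held for the KO libraries more than for wild-type, where the ratios to the genome were 0.739 and 0.648.

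Stretches with a like GC content were covered more than the genome in all libraries but *Uhrf1* KO 1. Genomic bins of 100 kb with 48% to 50% GC, of which there were 1198, were covered on average over 42.3% and 40.8% in wild-type, 6.37% and 23.1% in *Uhrf1* KO and 37.1% and 24.7% in *Dhx9* KO cells. Against these bins the clusters were lower by 22.9 points on average over the 6 libraries. Both wild-type libraries had the widest gaps to these bins in points, unlike the gaps to the genome. The ratios of cluster to bin coverage were 0.274 and 0.241 in wild-type, 0.171 and 0.0895 in *Uhrf1* KO and 0.242 and 0.143 in *Dhx9* KO cells. Among the 70 bins with at least 20 CpG per kb, coverage was 19.1% and 19.5% in wild-type, 2.74% and 7.63% in *Uhrf1* KO, and 16.1% and 8.31% in *Dhx9* KO cells, so that CpG-dense bins were closer to the clusters than GC-matched bins were. These bins were chosen after the data were seen, and bins that overlap the *Hox* clusters were not left out. The clusters hold from 20.5 (*Hoxb*) to 28.9 (*Hoxa*) CpG per kb, so parts of them can be among the CpG-dense bins.

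**Figure D1:**
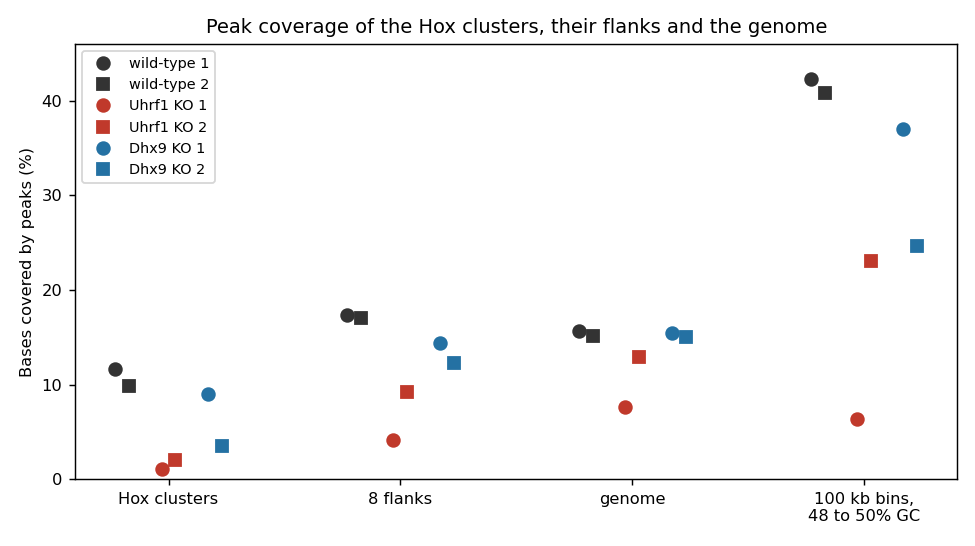
Bases covered by H3K9me3 peaks (%, vertical axis) in the 4 *Hox* clusters, their 8 flanks of 200 kb, the genome, and 100 kb bins of 48 to 50% GC (horizontal axis). Each point is 1 library, with circles for replicate 1 and squares for replicate 2. Cluster points run from 1.09% to 11.6% and lie below the genome point of the same library in all 6 libraries.

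Peaks within the clusters were also of low strength in wild-type cells. The median log2 fold of ChIP over background was 0.69 for the 16 peaks of wild-type 1 and 0.78 for the 17 of wild-type 2, against 1.05 and 1.06 over all peaks of those lists. In *Uhrf1* KO cells the 4 and 5 remaining peaks had medians of 1.88 and 1.52, against 1.56 and 1.29 over all peaks. In *Dhx9* KO cells the 19 and 12 peaks had medians of 0.79 and 1.42, against 0.93 and 1.01. The cluster peaks were thus below their list's median in wild-type 1, wild-type 2 and *Dhx9* KO 1 and above it in the other 3 libraries, which had fewer cluster peaks.

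The 4 clusters did not share the mark evenly. *Hoxd* was the most covered in wild-type, with 18.5% and 18.5%, above the genome's 15.7% and 15.2%, and the other 3 clusters were below the genome in both wild-type libraries. *Hoxd* was followed by *Hoxb* with 13.5% and 10.8%. *Hoxa* had 7.96% and 3.88% and *Hoxc* 6.36% and 6.52%, and these clusters were not separated by their spread. In *Uhrf1* KO cells *Hoxa* had no peak in either library, *Hoxb* was covered over 2.18% and 3.26%, *Hoxc* over 0.477% and 1.43%, and *Hoxd* over 1.12% and 3.00%. In *Dhx9* KO 1 the values were 3.46% in *Hoxa*, 13.3% in *Hoxb*, 4.45% in *Hoxc* and 12.9% in *Hoxd*, and in *Dhx9* KO 2 they were 0%, 6.31%, 2.55% and 3.74%. *Dhx9* KO 2 was below *Dhx9* KO 1 in all 4 clusters although both lists cover a like share of the genome.

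**Figure D2:**
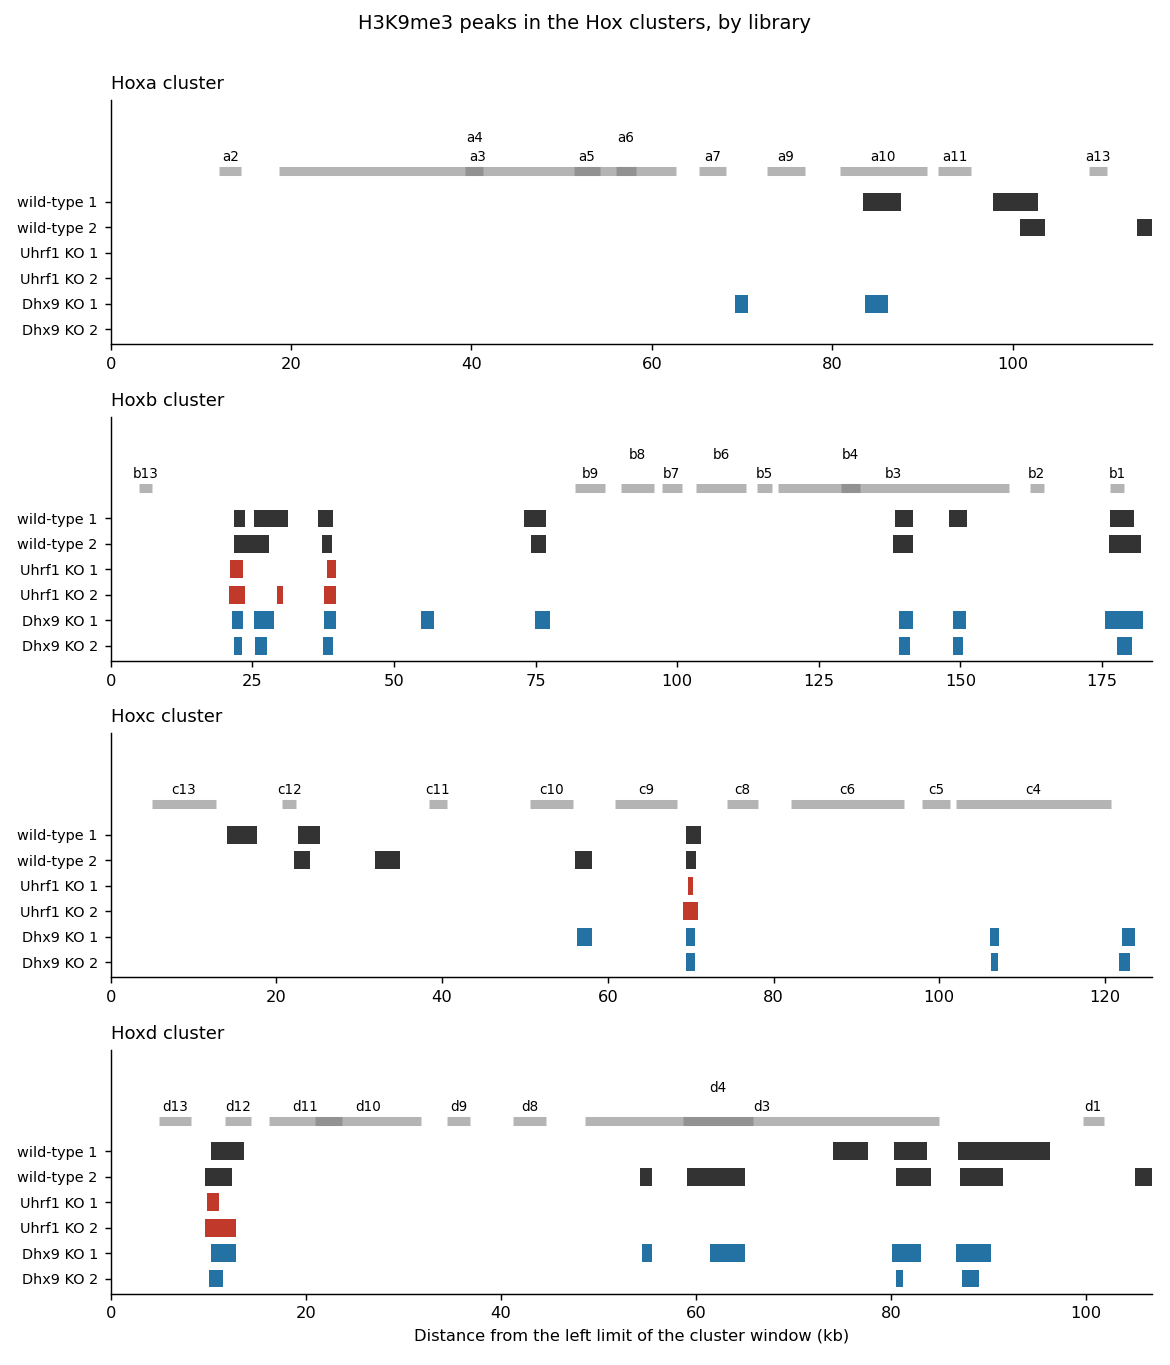
Peaks of each library (rows) along the 4 cluster windows, with the distance from the left limit in kb on the horizontal axis. Grey bars above are *Hox* genes from first to last transcript base, black bars wild-type, red *Uhrf1* KO and blue *Dhx9* KO peaks. The *Hoxa* window has no peak in 3 libraries, and 4 places have a peak in all 6.

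Each cluster held all or most of a long run without a peak in any list. In *Hoxa* it measured 78400 bp and began in the left flank. In *Hoxb* it measured 60400 bp, with *Hoxb9*, *Hoxb8*, *Hoxb7*, *Hoxb6*, *Hoxb5* and *Hoxb4*. In *Hoxc* the run of 34800 bp held *Hoxc8*, *Hoxc6* and *Hoxc5*, and in *Hoxd* the run of 40600 bp held *Hoxd11*, *Hoxd10*, *Hoxd9* and *Hoxd8*. The median gap between regions over the genome was 4400 bp, and gaps as long as these made up 1.97%, 3.25%, 7.74% and 6.18% of 158587.

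With a window of the transcripts plus 5 kb, 13 and 14 of 39 *Hox* genes had a peak in wild-type, 4 and 5 in *Uhrf1* KO and 16 and 10 in *Dhx9* KO cells. That is 33.3% and 35.9%, 10.3% and 12.8%, and 41.0% and 25.6%, against 64.8% and 64.8%, 39.8% and 53.5%, and 66.1% and 60.7% of all genes. *Hox* genes are short, with a median window of 13.5 kb against 21.6 kb. Among the 16567 genes with windows of 10 to 20 kb, 54.2% and 54.3% had a peak in wild-type, 27.5% and 41.6% in *Uhrf1* KO and 56.1% and 49.4% in *Dhx9* KO cells, so that the share of the 33 *Hox* genes of that length (33.3% and 36.4%, 12.1% and 15.2%, and 39.4% and 21.2%) was lower in each library. Neighbouring *Hox* genes share peaks and are not independent.

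Within 1 kb of a start, a window equal in length for every gene, 4 and 4 *Hox* genes had a peak in wild-type, 1 and 1 in *Uhrf1* KO, and 4 and 2 in *Dhx9* KO cells. These were 10.3% and 10.3%, 2.56% and 2.56%, and 10.3% and 5.13%, against 29.1% and 28.4%, 10.0% and 20.4%, and 29.1% and 24.2% of all genes. Over the 6 lists together, 5 of the 39 genes had a peak at a start at least once, namely *Hoxa10*, *Hoxb3*, *Hoxb1*, *Hoxd12* and *Hoxd4*. The share over all genes was not taken for the 6 lists together. No *Hoxc* start was within 1 kb of a peak in any list.

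Other gene families that lie in clusters gave other values. Of 50 keratin genes, 46 and 46 had a peak in the transcripts plus 5 kb in wild-type, and of 56 clustered protocadherin genes, which encode neuronal adhesion proteins, 55 and 50 did. In *Uhrf1* KO cells the counts were 32 and 46 and 33 and 41, and in *Dhx9* KO cells 46 and 42 and 48 and 36. Of 346 genes named as zinc finger proteins, among them repressors of transposable elements, 243 and 241 had a peak in wild-type, 162 and 194 in *Uhrf1* KO and 213 and 222 in *Dhx9* KO cells. In the transcripts plus 5 kb the *Hox* share was below each of these in all 6 libraries. It was not below every gene set there. In wild-type 1, 30% of 10 pluripotency genes and 25% of 8 Trithorax genes had a peak, against 33.3% of *Hox* genes. In wild-type 2 it was 50% and 62.5%, against 35.9%. In the KO libraries each of these sets was above *Hox* genes in some and below in others. Families were not matched for window length. Within 1 kb of a start, 76% and 82% of keratin and 64.3% and 53.6% of protocadherin genes had a peak in wild-type. Zinc finger genes, at 13.87% and 13.01%, were closer to *Hox* genes, at 10.3% and 10.3%. Polycomb genes stood at 9.375% and 12.5%, so a low share of start peaks was not particular to *Hox* genes. Differences between families were not tested.

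**Figure D3:**
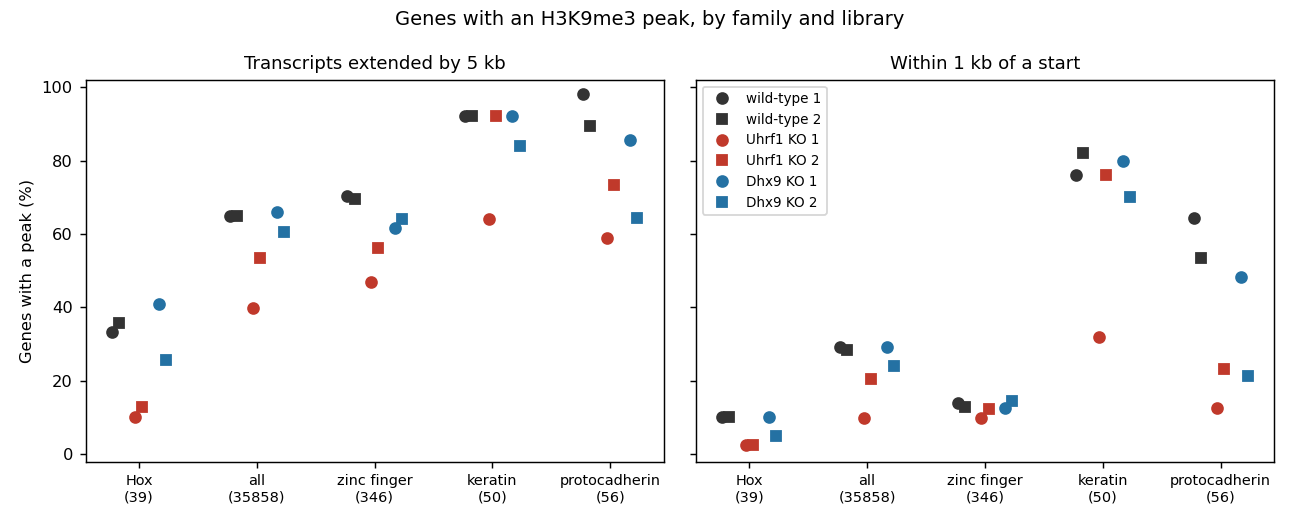
Genes with a peak (%, vertical axis) by family (number of genes in brackets, horizontal axis) and library, with circles for replicate 1 and squares for replicate 2. The left panel counts peaks in the transcripts plus 5 kb, where *Hox* points run from 10.3% to 41.0%, and the right panel counts peaks within 1 kb of a start, where they run from 2.56% to 10.3%.

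Of the 39 genes, 17 had no peak in any list, 7 had one in 1 list, 7 in 2, 3 in 4, 1 in 5 and 4 in all 6. The genes without a peak were 6 of 11 in *Hoxa*, 7 of 10 in *Hoxb*, 1 of 9 in *Hoxc* and 3 of 9 in *Hoxd*. By paralogue group, which follows position along the body axis, 6 of 12 genes of groups 1 to 4, 8 of 11 of groups 5 to 8 and 3 of 16 of groups 9 to 13 had none. In *Uhrf1* KO cells no gene of groups 1 to 4 had a peak, against 4 and 5 in wild-type. Of groups 9 to 13, 3 and 4 did, against 8 and 8. No share over all genes was taken for any of these counts, so they do not show whether *Hox* genes are unusual in them.

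The genes with a peak in all 6 lists form 2 pairs of neighbours. *Hoxd13* and *Hoxd12*, which shape digits, share the region chr2:74673001-74677000, and its log2 folds were 1.19 and 1.26 in wild-type, 2.50 and 1.42 in *Uhrf1* KO, and 1.49 and 2.15 in *Dhx9* KO cells. It is the one region in all 6 lists that reaches a *Hox* start, with 34.5 CpG per kb. Its ChIP reads were 163 and 128, 39 and 200, and 168 and 115. The peak covered 1988 and 788 bp of the *Hoxd12* transcript in wild-type, 0 and 1188 bp in *Uhrf1* KO and 1188 and 0 bp in *Dhx9* KO cells, so in 2 libraries it stopped before the gene. *Hoxd11*, the next gene, came within 5 kb of the same peak in 5 libraries and not in *Uhrf1* KO 1.

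*Hoxc9* and *Hoxc8*, which act in the thoracic region, share chr15:102985201-102987400. This region had log2 folds of 1.33 and 2.27 in wild-type, 2.68 and 1.64 in *Uhrf1* KO and 2.20 and 2.23 in *Dhx9* KO cells, with 72 and 62, 22 and 103, and 69 and 70 ChIP reads. It lies between both genes and touched neither transcript. Its folds were the highest of any cluster region in 5 of 6 libraries, the exception being wild-type 1, and they overlapped between genotypes.

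The gap between *Hoxb13* and *Hoxb9* held the other 2 regions found in all 6 lists, chr11:96210201-96220600 and chr11:96226001-96229200. Neither is within 5 kb of a *Hox* gene. Their log2 folds ran from 0.95 to 1.78 and from 0.62 to 1.62. They were the most repeat-rich of the 4, with 42.4% and 55.9% masked bases, against 7.73% at *Hoxc* and 9.10% at *Hoxd12*.

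A second set of genes had peaks in both wild-type and both *Dhx9* KO libraries and in neither *Uhrf1* KO library. *Hoxb1*, which sets the identity of a hindbrain segment, had 4200 and 5600 bp covered in wild-type, 6800 and 2600 bp in *Dhx9* KO and 0 bp in both *Uhrf1* KO libraries. Its region chr11:96364801-96371600 had log2 folds of 0.69 and 0.56 in wild-type and 0.81 and 1.49 in *Dhx9* KO cells. *Hoxb3*, expressed in the hindbrain, had 6400 and 3600 bp covered in wild-type and 4800 and 3600 bp in *Dhx9* KO cells, with folds of at most 0.85.

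*Hoxd3*, which patterns the neck vertebrae and whose transcripts span *Hoxd4*, had the most covered bases of the 39 genes in both wild-type libraries, 10071 and 13671 bp, against 10871 and 2600 bp in *Dhx9* KO and 0 and 0 bp in *Uhrf1* KO cells. The strongest of its regions was chr2:74743401-74747400, with log2 folds of 1.51 and 1.57 in wild-type and 1.20 and 1.62 in *Dhx9* KO cells. Wild-type libraries had 173 and 184 ChIP reads there, and *Dhx9* KO libraries 131 and 64. No other cluster region lost in *Uhrf1* KO cells had both wild-type folds above 1. Next to it the region of the noncoding RNA Haglr, chr2:74750001-74759600, had 294 and 172 reads in wild-type and 116 and 89 in *Dhx9* KO cells, with folds of 0.62, 0.89, 0.23 and 0.78.

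*Hoxc12* and *Hoxd1* had a peak in both wild-type libraries and in no other, but for *Hoxd1* these were different peaks. That of wild-type 1 was the end of the Haglr region, which both *Dhx9* KO lists also hold, and that of wild-type 2, chr2:74768401-74770800, was in that list alone. *Hoxc12*, a posterior member, had 4548 and 2000 bp covered and *Hoxd1* 1621 and 1742 bp, at log2 folds of at most 0.85 and 0.62. *Hoxc5* and *Hoxc4* had a peak in both *Dhx9* KO libraries and in no other. Both rest on the region chr15:103022201-103023400 in an intron of *Hoxc4*, with log2 folds of 1.16 and 2.01 and 56 reads in each library. Only 229 and 29 bp of it fell within the *Hoxc5* window. *Hoxc4* had a second region in both *Dhx9* KO libraries, chr15:103037801-103039800, with folds of 1.24 and 1.45 and 66 and 76 reads.

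*Hoxa10*, *Hoxc10* and *Hoxd4* each had a peak in 1 wild-type library and in *Dhx9* KO 1. *Hoxa10*, needed for uterine development, was the one *Hoxa* gene with a peak in more than 1 list, over 4200 bp in wild-type 1 (log2 fold 0.22) and 2600 bp in *Dhx9* KO 1 (0.64). *Hoxc10* was covered over 2000 bp in wild-type 2 and 1800 bp in *Dhx9* KO 1, and *Hoxd4* over 7200 and 4600 bp. The folds of *Hoxc10* were 0.28 and 0.66 and those of *Hoxd4* 0.78 and 0.92. All of these are genes in which replicates of wild-type disagreed.

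**Figure D4:**
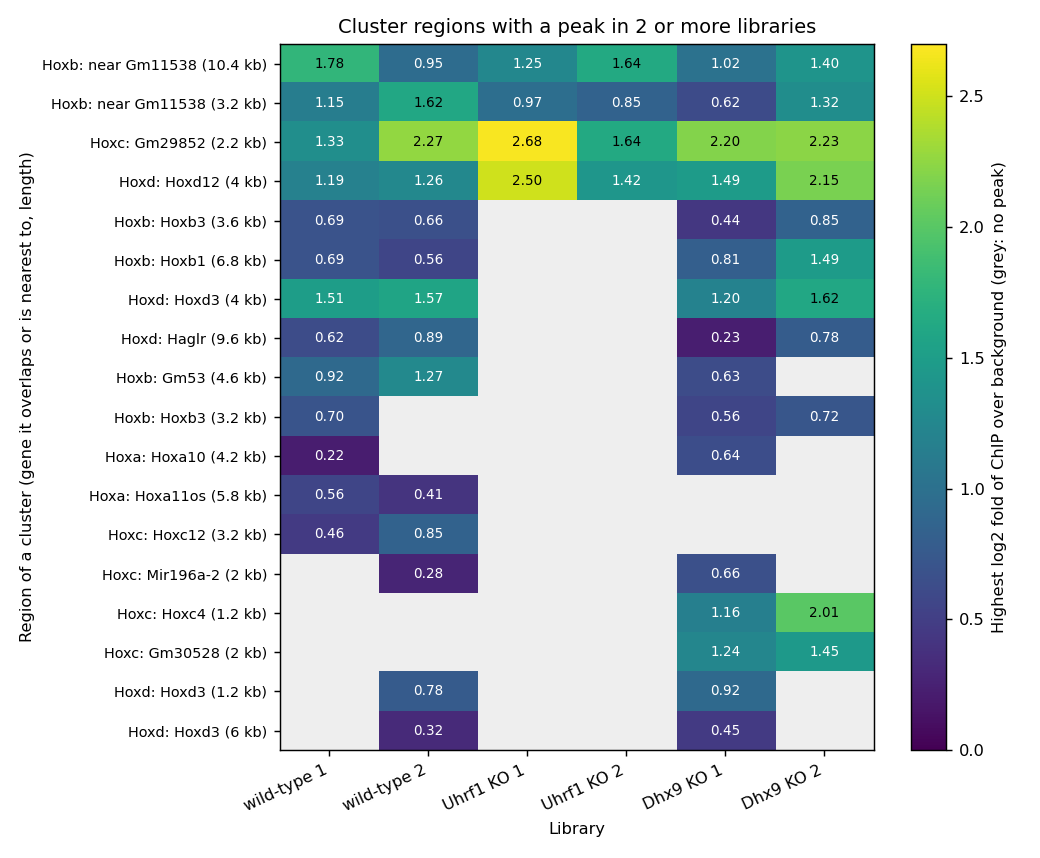
Highest log2 fold of ChIP over background (colour and number) in each library (horizontal axis) for the cluster regions with a peak in 2 or more libraries (vertical axis, by the gene overlapped or nearest and the length). Grey means no peak. The top 4 regions are in all 6 libraries, *Uhrf1* KO columns are grey outside them, and the *Hoxc4* and Gm30528 regions are coloured in *Dhx9* KO only.

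Of the 25 merged regions of the clusters, 4 (16.0%) were in all 6 lists and 7 in 1, against 35345 of 158608 (22.3%) and 45445 over the genome, so that sharing between lists was close to that of the genome. Their GC content ran from 42.7% to 55.7%, and 22 of the 25 had a lower masked share than the genome. Among the 11 regions found in both wild-type libraries the median GC content was 51.6% and the median CpG density 17.9 per kb, against 46.2% and 10.2 per kb over all 79799 such regions.

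Cluster coverage relative to the genome was lower in *Uhrf1* KO than in wild-type cells. The ratio was 0.142 and 0.160 against 0.739 and 0.648, a difference of -0.54 with no overlap between groups. An exact permutation test of 2 against 2 libraries gave p = 0.333, which is the smallest p it allows, so the difference cannot pass a threshold. Without *Uhrf1* KO 1, the library with the fewest peaks, the difference was -0.53. With stricter peaks it was smaller, -0.35 at a false discovery rate of at most 1e-10, -0.17 at a log2 fold of at least 1 and -0.23 with an equal number of peaks a library. Coverage of the clusters divided by that of GC-matched bins was 0.274 and 0.241 for wild-type, against 0.171 and 0.0895 for the *Uhrf1* KO libraries, a difference of -0.13, so the groups did not overlap on this scale either.

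Of 10 *Hox* genes with a peak in both wild-type libraries, 5 had none in either *Uhrf1* KO library (*Hoxb1*, *Hoxb3*, *Hoxc12*, *Hoxd1* and *Hoxd3*), where 17.6% of 21417 genes did. None of the 4 *Hox* genes with a peak in both *Uhrf1* KO libraries lacked it in wild-type, and 2.22% of 13517 genes did. The lost count rose to 9 of 14 without wild-type 1 and 8 of 13 without wild-type 2. It fell to 1 of 6 with each kind of stricter peaks. These were a false discovery rate of at most 1e-10, a log2 fold of at least 1, or an equal number of peaks a library. The share over all genes was not taken at these other settings, so these counts cannot be set against the 17.6%.

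Counted as merged regions, 7 of the 11 wild-type regions in the clusters were lost in *Uhrf1* KO cells, where 24.2% of all wild-type regions were, and 0 of 4 were gained, where 8.51% were. This count of cluster regions was added after the data were seen. It was 13 of 17 without wild-type 1 and 11 of 16 without wild-type 2. With the stricter peaks, in the same order, it was 4 of 7, 2 of 4 and 2 of 6. The share over all regions was not taken at these other settings. The lost regions lay at Hoxa11os, Mir196a-1, *Hoxb3*, *Hoxb1*, *Hoxc12*, *Hoxd3* and Haglr. In this comparison GC content and peak strength moved with loss over the whole genome. Loss rose from 4.97% of regions in the lowest of 5 equal classes by GC content to 45.6% in the highest class, and 6 of the 11 cluster regions were in that highest class, 5 of them lost. Loss was 56.1% where the lower wild-type log2 fold was under 0.5 and 9.23% where it was from 1.5 to 2, and 7 of the 11 cluster regions were under 1, 6 of them lost. Their part in the loss at the *Hox* clusters was not tested.

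**Figure D5:**
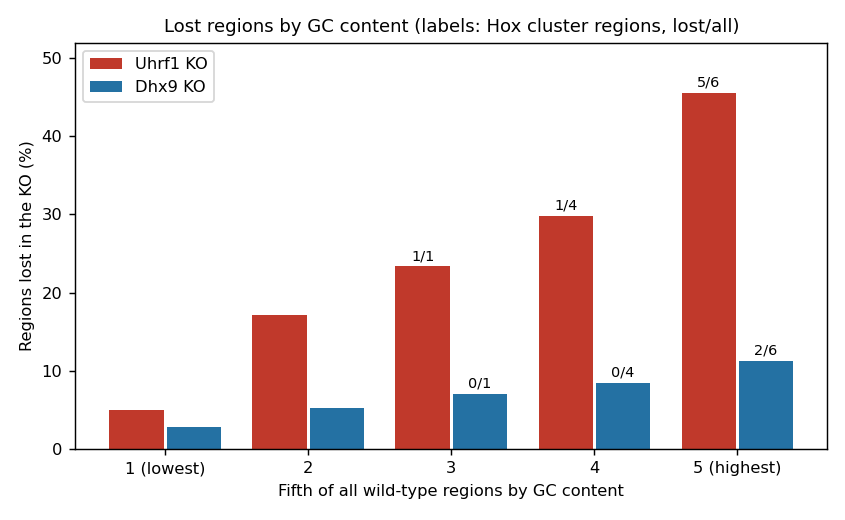
Share of wild-type regions without a peak in either KO library (%, vertical axis) by 5 equal classes of GC content over all wild-type regions (horizontal axis), in red for *Uhrf1* KO and blue for *Dhx9* KO. Numbers above bars give the *Hox* cluster regions lost and all those in the class. Loss in *Uhrf1* KO runs from 4.97% to 45.6%, and 6 of the 11 cluster regions are in the highest class.

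In *Dhx9* KO cells the cluster ratios to the genome were 0.582 and 0.235, against 0.739 and 0.648 in wild-type, a difference of -0.29 (exact permutation p = 0.333, the smallest possible). *Dhx9* KO 1 was close to wild-type 2 and *Dhx9* KO 2 was far below, and the difference was -0.11 without *Dhx9* KO 2 and -0.46 without *Dhx9* KO 1. With peaks of a log2 fold of at least 1 it was 0.02, so the direction depended on weak peaks. Relative to GC-matched bins it was -0.06 with overlapping groups.

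Of the 10 wild-type *Hox* genes, 2 were lost in *Dhx9* KO cells (*Hoxc12*, and *Hoxd1*, which has no region shared by both wild-type lists and missing in *Dhx9* KO), where 2.9% of all genes were, and of 10 in both *Dhx9* KO libraries 2 were gained (*Hoxc4* and *Hoxc5*), where 2.77% were. The lost count was 4 without either wild-type library and 0 with each stricter set of peaks, and the gained count was 5 without *Dhx9* KO 2. As regions, 2 of 11 were lost and 2 of 11 gained, where 6.97% and 8.74% were over the genome. Without wild-type 1 the lost regions were 5, without wild-type 2 they were 4, and without *Dhx9* KO 2 the gained regions were 4 of 18. Shares over all genes and regions were not taken at these other settings. Both lost regions, at Hoxa11os and *Hoxc12*, had lower wild-type folds under 0.5, a class in which 19.3% of regions were lost, and both were in the highest of the GC classes, where 11.3% were. Counts of 2 do not separate the clusters from the genome.

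Both KO comparisons use the same wild-type libraries, so they are given side by side. The 7 regions lost in *Uhrf1* KO cells include the 2 lost in *Dhx9* KO cells, and the other 5 had a peak in at least 1 *Dhx9* KO library. No share over all regions was taken for this overlap. Both of the 2 had a lower wild-type log2 fold under 0.5, a class in which 56.1% of all regions were lost in *Uhrf1* KO cells.

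The flanks were above the genome level in wild-type and below it in KO cells. They were covered over 17.3% and 17.1% in wild-type, 4.14% and 9.19% in *Uhrf1* KO and 14.4% and 12.3% in *Dhx9* KO cells. The difference to the genome was -1.27 percentage points (SD 2.53, n = 6 libraries, exact sign-flip p = 0.25). With stricter peaks or flanks of 500 kb it was below the genome in all 6 libraries. Relative to the genome the flanks stood at 1.10 and 1.13 in wild-type, 0.538 and 0.712 in *Uhrf1* KO and 0.930 and 0.816 in *Dhx9* KO cells, with exact permutation p = 0.333, the smallest possible, for each KO.

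The right flank of *Hoxa*, beyond *Hoxa13* and the homeobox gene *Evx1*, was the most covered in wild-type 1, with 35.2%, and in wild-type 2, with 31.8%. It was covered over 16.8% and 33.4% in *Uhrf1* KO and 32.5% and 33.8% in *Dhx9* KO cells, next to a cluster that had no peak in 3 of these 4 libraries. The 3 strongest regions there were in all 6 lists. The region chr6:52344601-52359400, nearest to *Evx1*, had log2 folds of 1.87 and 1.43, 2.35 and 2.60, and 1.25 and 1.75, and 757 and 767, 574 and 1272, and 770 and 1070 ChIP reads. The regions chr6:52384201-52394800 and chr6:52456001-52461000 had wild-type folds of 1.31 and 1.82 and of 1.55 and 1.48.

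The right flank of *Hoxc* was covered over 25.9% and 26.3% in wild-type, 0.30% and 4.60% in *Uhrf1* KO, and 16.5% and 9.80% in *Dhx9* KO cells, with both KO lines below both wild-type libraries. Its strongest region, chr15:103063601-103066600 in Gm30528, was in both wild-type lists and in *Dhx9* KO 2, with folds of 1.68, 1.31 and 0.60. In the left flank, a region in Gm36560, chr15:102808001-102814800, was in both wild-type and both *Dhx9* KO lists, and one in Gm36510, chr15:102730401-102739200, in all 6.

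Near *Hoxd*, the region chr2:74584201-74587200 by *Lnp*, which encodes the endoplasmic reticulum protein Lunapark, had the highest wild-type folds of all flank regions named here. They were 2.10 and 3.13, with 1.94 and 2.36 in *Uhrf1* KO and 1.83 and 2.04 in *Dhx9* KO cells, and 84.7% of the region is masked repeat. A second region by *Lnp*, chr2:74506001-74509600, was in all 6 lists, and chr2:74613201-74614600, nearest to Gm39852, in all but *Uhrf1* KO 1. Near *Hoxb*, the 3 strongest regions, by *Hoxb13* (chr11:96184801-96189000), in *Ttll6*, which encodes a tubulin-modifying enzyme (chr11:96164801-96167800), and beside *Ttll6* (chr11:96169201-96173400), were in neither *Uhrf1* KO list and in 4, 3 and 2 lists in all.

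Of the 51 flank regions in both wild-type lists, 21 (41.2%) were lost in *Uhrf1* KO cells, where 24.2% of all regions were, and 5 of 50 (10.0%) in *Dhx9* KO cells, where 6.97% were. Gained were 1 of 18 and 3 of 42 (5.56% and 7.14%), where 8.51% and 8.74% of all regions were. Other than for loss in *Uhrf1* KO these shares lay near those of the genome. The lost count in *Uhrf1* KO was 44 of 83 without wild-type 1, 36 of 72 without wild-type 2 and 35 of 52 without *Uhrf1* KO 2. The lost count in *Dhx9* KO was 24 of 79 without wild-type 1, 13 of 67 without wild-type 2, 13 of 50 without *Dhx9* KO 1 and 9 of 52 without *Dhx9* KO 2, so each of these counts depends on having 2 libraries a group. The gained count was 8 of 45 without *Uhrf1* KO 1 and 2 without wild-type 1 or without *Uhrf1* KO 2. For *Dhx9* KO it was 7 without either wild-type library, 9 without *Dhx9* KO 1 and 13 without *Dhx9* KO 2. Shares over all regions were not taken with a library left out. Of 30 other genes that start in the flanks, 5 and 7 had a peak within 1 kb of a start in wild-type. In *Uhrf1* KO 0 and 1 did, and in *Dhx9* KO cells 5 and 3. Over all genes the shares were 29.1% and 28.4%, 10.0% and 20.4%, and 29.1% and 24.2%. Among the 30, 6 had such a peak in 2 or more libraries and 0 in all 6, and no share over all genes was taken for these counts. They were Gm11529 and *Skap1*, which encodes an adaptor of T cell signalling, by *Hoxb* (each in both wild-type and both *Dhx9* KO lists), and Gm36510, Gm36560, D930007P13Rik and Gm30528 by *Hoxc*.

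Reads per called length were compared for regions that every library of a comparison had called and of which each call spanned 80% or more. No cluster region met this in either comparison. Of the 4 and 8 cluster regions called in all 4 libraries of the *Uhrf1* KO and *Dhx9* KO comparisons, 0 and 0 were covered far enough, and of 16 and 33 flank regions 0 and 1 were. Over the genome, edgeR (quasi-likelihood test, p-values adjusted by Benjamini-Hochberg) called 140 of 2528 regions (5.54%) lower and 81 (3.2%) higher in *Uhrf1* KO, and 26 of 4701 (0.553%) lower and 2 (0.0425%) higher in *Dhx9* KO cells. The 1 flank region, chr6:52345401-52359000 near *Evx1*, had a log2 change of 0.16 (SE 0.14, adjusted p = 0.749) in *Dhx9* KO cells. Without *Dhx9* KO 1 it was 0.33 with an adjusted p of 0.00851, and the other libraries left out gave no call.

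With all regions called in every library regardless of their coverage, the 4 cluster regions had log2 changes of -0.26 to 0.49 in *Uhrf1* KO cells, with edgeR adjusted p from 0.465 to 0.753. The 8 in *Dhx9* KO cells ran from -0.03 to 0.60, with adjusted p from 0.368 to 0.983. By edgeR 0 of the 4 and 0 of the 8 passed after adjustment, and 0 and 2 had an unadjusted p under 0.05. The *Hoxd12* region had 0.46 (SE 0.23) in *Uhrf1* KO and 0.60 (SE 0.20) in *Dhx9* KO cells. The *Hoxc9* to *Hoxc8* region had 0.49 (SE 0.32) and 0.58 (SE 0.28). All of these are changes in reads per called length, so they do not show whether a peak became shorter. The *Hoxd12* region was called over 3400 and 2800 bp in wild-type, 1200 and 3200 bp in *Uhrf1* KO and 2600 and 1400 bp in *Dhx9* KO cells.

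Genes that act with *Hox* proteins or keep their clusters repressed were read by peaks within 1 kb of their starts, which 29.1% and 28.4% of all genes had in wild-type, 10.0% and 20.4% in *Uhrf1* KO and 29.1% and 24.2% in *Dhx9* KO cells. Of 9 *Hox* cofactors (the Pbx, Meis and Pknox homeodomain partners), 1 had a peak in any list, *Pknox2*, in all but *Uhrf1* KO 1. Of 7 ParaHox and Evx genes, 1 had a peak, in wild-type 1 only. It was *Pdx1*, a pancreas regulator, named after its values were seen. Of 32 Polycomb genes 3 and 4 had a peak in wild-type, 0 and 3 in *Uhrf1* KO and 5 and 3 in *Dhx9* KO cells. *Pcgf5* and *Phc2*, both subunits of Polycomb repressive complex 1, had it in all but *Uhrf1* KO 1, *Sfmbt2* in both wild-type and both *Dhx9* KO lists, and *Phf19*, a partner of Polycomb repressive complex 2, in wild-type 2 and *Dhx9* KO 1. Of 8 Trithorax genes, which oppose Polycomb, only *Ash2l* had one, in both wild-type and both *Uhrf1* KO lists and in neither *Dhx9* KO list. Of 15 noncoding RNAs of the clusters, 1 and 4 had a start peak in wild-type, 0 and 0 in *Uhrf1* KO and 3 and 0 in *Dhx9* KO cells. With windows of the transcripts plus 5 kb these counts were 5 and 8, 0 and 0, and 6 and 1.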

How the data were processed

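H3K9me3 ChIP-seq peak lists of 6 of the 18 samples were used, 2 each of wild-type, *Uhrf1* KO and *Dhx9* KO mESCs. Inputs and the samples of the reporter time course were not analysed here. Per the study's methods the authors aligned reads to mm10 with Bowtie2 2.3.4.3 in local mode, subsampled them with SAMtools and called peaks for each library with epic2, keeping duplicates, with wild-type input as background (the submitters' processing notes list SICER 0.0.51). These steps are given for wild-type and *Uhrf1* KO, and for *Dhx9* KO they are not given in the sources used here. The authors' deposited lists give for each peak the ChIP read count and the background read count as counts, a p-value, a false discovery rate (q-value), a score, and ChIP over background as a log2 fold. Positions on chromosome 2 in the deposited annotation include a reporter insert of 2762 bp, which was subtracted, since the lists end at 182013200 on chromosome 2, within the unmodified chromosome.

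Peaks that overlapped or touched were merged into regions. A window or region was lost when it had a peak in both wild-type libraries and in neither KO library, and gained in the reverse case. Coverage was compared with the genome by exact sign flips over libraries and between groups by exact permutation, both two-sided. ChIP reads of regions were tested with edgeR 4.0.16 in R 4.3.3 (quasi-likelihood test, TMM factors, an offset for the length called, false discovery rate 0.05), and DESeq2 1.42.0 was an alternative. An SE is the log2 change divided by the square root of the F statistic. On simulated data of the *Uhrf1* KO comparison with 2528 regions, 81.4% of 43 regions lowered to 0.5 of their level and 90.0% of 50 regions raised 2-fold were recovered. In that of the *Dhx9* KO comparison with 4701 regions it was 87.0% of 46 and 90.0% of 50. These shares hold only for the spread assumed in the simulation. The tested sets of these sizes held 0 cluster regions in either comparison, so the shares do not give the power at the *Hox* clusters. The labels give replicate numbers but do not say that they mark shared cultures or clones, so p-values measure the spread between these samples, which may be technical. Same-numbered libraries did not deviate together (correlation of the differences between replicates 0.06 and -0.07), and with 2 pairs such numbers were not taken as pairs.

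Named were *Hox* genes with a peak in at least 2 lists, the 3 flank regions of each cluster with the highest lower wild-type log2 fold, and members of the gene lists with a start peak in at least 2 lists, up to 6 a list. Members and lists were chosen with earlier results of these data known. Lists were *Hox* cofactors, ParaHox and Evx, Polycomb, Trithorax, cluster noncoding RNAs, and pluripotency and differentiated cell markers. Versions were Python 3.11.15, pandas 2.3.3 and NumPy 2.4.6. One gene is counted among the members but not reported on its own here.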

Additional observations from a re-analysis of the deposited data

How the results depend on the processing

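Settings were changed one at a time. Stricter peaks are a false discovery rate of at most 1e-10, a log2 fold of at least 1 and an equal number of peaks a library, in that order. The difference of cluster coverage to the genome kept its sign, with -8.16 to -6.67 points when 1 library was left out, where p was 0.0625, the smallest for 5 libraries, and it was -22.9 against GC-matched bins. The flank difference to the genome was -2.60, -2.01 and -2.32 with stricter peaks and -1.68 with flanks of 500 kb (exact p = 0.03125 each), 0.0188 with flanks of 100 kb, and -1.91 to -0.78 with 1 library left out. With stricter peaks the cluster ratio difference was -0.35, -0.17 and -0.23 in *Uhrf1* KO and -0.21, 0.0178 and -0.12 in *Dhx9* KO. With 1 library left out the cluster ratio differences were -0.59 to -0.50 in *Uhrf1* KO and -0.46 to -0.11 in *Dhx9* KO, and the flank ones -0.58 to -0.40 and -0.30 to -0.18.

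*Hox* genes lost in *Uhrf1* KO were 1, 1 and 1 with stricter peaks, 3 with no length added to transcripts, 12 with 10 kb added, and 5 to 9 with 1 library left out. Cluster regions lost were 4, 2 and 2, and 7 to 13. Flank regions lost were 7, 5 and 6, and 22 to 44, and those gained 5 (log2 fold), 6 (equal number) and 0 (flanks of 100 kb), and 1 to 8. In *Dhx9* KO the lost genes were 0, 0 and 0, 0 with no length added, 1 with the peak centre in the window, and 2 to 4. The gained genes were 1 with the false discovery rate, 1 with no length added, 1 by peak centre, and 2 to 5. Lost cluster regions were 0 (log2 fold) and 1 (equal number), and 2 to 5, and those gained 1 (false discovery rate), and 2 to 4. Lost flank regions were 1, 3 and 3, and 9 to 24, and those gained 0 (false discovery rate), and 7 to 13. Shares over all genes and regions were not taken at these settings, and the cause of these changes was not tested.

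Of the read count tests, edgeR called 221 regions in *Uhrf1* KO and DESeq2 109. With all regions called in every library edgeR called 0, with 4993 at an unadjusted p under 0.05, and 55 to 355 with 1 library left out, where the lone library is assumed to vary like the others. In *Dhx9* KO, edgeR called 28 and DESeq2 28, edgeR called 2 over all regions and 9 to 734 with 1 library left out. With the replicate number as a block edgeR called 212 in *Uhrf1* KO and 80 in *Dhx9* KO. For coverage, pairing by number left the differences at -0.54 and -0.29 in clusters and -0.49 and -0.24 in flanks with exact permutation p = 0.5, the smallest for 2 pairs. These numbers were not shown to pair the libraries.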

Other observations

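As a mean over the 8 flanks, coverage rose from the cluster to between 40 and 100 kb away and was mostly lower again beyond. Averaged over the 8 flanks, the first 20 kb were covered over 6.5% and 9.88% in wild-type, 0% and 2.88% in *Uhrf1* KO and 10.0% and 5.09% in *Dhx9* KO cells. From 80 to 100 kb the values were 25.7% and 20.7%, 11.1% and 17.6%, and 24.97% and 19.6%, higher than in the first 20 kb in 6 of 6 libraries. From 160 to 180 kb they were 10.46% and 9.23%, 4.36% and 13.8%, and 11.3% and 7.98%, below the step from 80 to 100 kb in 6 of 6 libraries. In wild-type 1 coverage was 18.7% again from 180 to 200 kb. The step from 80 to 100 kb of the *Hoxa* right flank holds most of the region chr6:52344601-52359400, which is in all 6 lists. This 1 region therefore adds to that step in every library. In *Uhrf1* KO 1 the SD over the 8 flanks was 23.0 in that step, against a mean of 11.1%. The SD over the 8 flanks was as large as the mean in wild-type 1 at most distances, and the trend was not tested.

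Marker genes were read only by a peak within 1 kb of a start, since peak lists hold no expression. Of 10 pluripotency genes, *Esrrb* had a start peak in all 6 lists and *Nanog* in both wild-type lists and *Dhx9* KO 1. The others, among them *Pou5f1*, *Sox2* and *Klf4*, had none in any list. Of 10 genes of differentiated cells, *Gata4*, a regulator of heart and endoderm, and *Myod1*, of muscle, had one in both wild-type and both *Dhx9* KO lists. Neither had one in a *Uhrf1* KO list. *Gfap*, an astrocyte gene, had one in wild-type 1 and *Dhx9* KO 1. *Gata6*, *Sox17* and *T* had one in 1 list each and the others in none. By library 3 and 3 of these 10 had one in wild-type, 0 and 0 in *Uhrf1* KO and 5 and 2 in *Dhx9* KO cells. For the pluripotency genes it was 2 and 2, 1 and 1, and 2 and 1. Of all genes 29.1% and 28.4%, 10.0% and 20.4%, and 29.1% and 24.2% had one. Differences to all genes were not tested.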
